A study of Mus musculus with 11 samples.

Results

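Hematopoietic stem cells (HSCs), the rare marrow cells from which all blood is renewed, were compared between mice injected with ATRA (all-trans retinoic acid, a signalling form of vitamin A) and then polyI:C (pIC, a synthetic mimic of viral double-stranded RNA) and mice injected with ATRA alone. Both groups had therefore received ATRA, and the difference between them was the response to pIC after ATRA. The arrays were taken by their titles, 3 labelled with ATRA and then pIC (ATRA+pIC) and 3 labelled with ATRA, which is 6 of the 11 arrays in the series. The other 5 arrays, 3 from PBS-injected mice and 2 from mice given pIC without ATRA, gave the response to pIC without ATRA for comparison. The strain, the age of the mice, the doses, the times between injections and sorting, the gate of the sort, and whether each array stands for a separate mouse or a pool are not stated in the labels.

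PolyI:C is sensed as viral RNA by Toll-like receptor 3 in endosomes and by the helicases Mda5 (Ifih1) and RIG-I (Ddx58) in the cytosol. These sensors induce type I interferon, whose receptor activates a complex that holds Stat2 and Irf9, and this complex binds the interferon-stimulated response element in the promoters of antiviral genes. Most HSCs rest outside the cell cycle, and interferon is known to drive them into it for a short time, with a loss of surface and transcription factor markers of the resting state. ATRA acts through nuclear retinoic acid receptors and is known to hold HSCs in dormancy, a deep resting state.

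Array medians lay between 6.19 and 6.28 on the log2 intensity scale, and all levels below are on that scale, on which 1 unit is a doubling of intensity. In each gene a single probe set was read, and probe sets differ in brightness, so levels are compared between arrays and never between genes. Differences between group means are given in log2 units ± standard error (SE) from a limma model of all 11 arrays and 22180 genes. Calls were made where the p, adjusted over all genes by Benjamini-Hochberg, was under 0.05, and only called genes are said to have risen or fallen. Defining HSC genes were bright on the ATRA arrays, with Kit, the stem cell factor receptor, at 12.31 to 12.46, the HSC surface marker Slamf1 at 9.61 to 9.86 and the HSC marker Procr at 8.48 to 8.56. The number of arrays limits the precision of every value. In sorted cells measured in bulk, fewer cells of a type and less RNA per cell cannot be told apart.

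ATRA+pIC replicate 2 lay apart from replicates 1 and 3 in this comparison. Results are therefore given with all arrays and without that array, and values with no such mark are from all arrays. With all arrays, 1599 of 22180 genes were called (7.21%), 777 higher (3.50%) and 822 lower (3.71%) with pIC. Without ATRA+pIC replicate 2, 3214 genes were called (14.5%), 1549 higher (6.98%) and 1665 lower (7.51%). The calls shared by both fits numbered 1527, which is 95.5% of the calls with all arrays and 47.5% of the calls without replicate 2. Of the 1599 genes called with all arrays, 1597 had ATRA+pIC and ATRA arrays that did not overlap, so this adds little to a call. Over all genes, 11.7% had higher and 12.4% had lower ATRA+pIC arrays without overlap. The median over all genes was -0.0033 with all arrays and -0.0078 without replicate 2. Differences above 1 log2 unit were found in 142 genes that rose and 115 that fell, and in 253 and 246 without replicate 2. An unadjusted p under 0.05 was found for 21.6% of genes, and for 25.8% without replicate 2. Leaving out another of the 6 arrays lowered the count to 594, 624 and 755 without ATRA replicate 1, 2 and 3, and to 579 and 476 without ATRA+pIC replicate 1 and 3. Without replicate 2 and ATRA+pIC replicate 1, 1162 genes were called.

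Part of the double-stranded RNA sensors rose. Of 16 measured sensors and adaptors, 7 rose and 0 fell with all arrays, and 8 rose without ATRA+pIC replicate 2, with median differences of 0.53 and 0.65. Ifih1, the cytosolic sensor Mda5, stood at 9.77, 9.94 and 9.96 on ATRA replicates 1, 2 and 3 and at 11.45, 10.53 and 11.12 on ATRA+pIC replicates 1, 2 and 3. Every ATRA+pIC array lay above the ATRA arrays, and replicate 2 was the lowest of its group. The difference was 1.15 ± 0.18 (2.21-fold, adjusted p = 0.00667) and 1.40 ± 0.11 without that array. Ddx58, the sensor RIG-I, rose by 1.19 ± 0.16 (adjusted p = 0.00284, and 1.41 ± 0.10 without replicate 2), Dhx58, which modulates both helicases, by 1.79 ± 0.15 (adjusted p = 0.000567, and about 2 without replicate 2) and Eif2ak2, the kinase PKR that stops translation on viral RNA, by 1.21 ± 0.13 (adjusted p = 0.00125, and 1.31 ± 0.13 without replicate 2). Zbp1, a sensor of nucleic acids in the Z conformation, rose by 3.29 ± 0.44 (adjusted p = 0.00284) and by 3.96 ± 0.16 without replicate 2. Toll-like receptor 3 itself (Tlr3) missed the threshold in both fits, at 0.76 ± 0.37 (adjusted p = 0.265) and 0.95 ± 0.40 (adjusted p = 0.17).

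Receptors, Jak-Stat components, interferon regulatory factors and their inhibitors gave 21 measured members, of which Irf7, Usp18, Stat2 and Irf9 rose with all arrays. In that fit 4 rose and 2 fell (median 0.10), and without replicate 2 8 rose and 3 fell (median 0.16). Irf7 (probe set 17497813), the factor that amplifies interferon production, stood at 8.29, 8.39 and 8.35 on the ATRA arrays and at 11.05 on ATRA+pIC replicate 2, at 11.82 on replicate 3 and at about 12 on replicate 1. Every ATRA+pIC array lay over 2 log2 units above every ATRA array. The difference was 3.27 ± 0.19 (9.68-fold), with the smallest adjusted p of any gene with all arrays (0.000106), and 3.56 ± 0.10 without replicate 2. Usp18, which removes Isg15 from proteins and damps the interferon receptor, rose by 3.42 ± 0.36 (adjusted p = 0.0011, and 3.99 ± 0.11 without replicate 2) and Stat2, a partner of the interferon-activated complex, by 1.83 ± 0.29 (adjusted p = 0.00661, and 2.23 ± 0.16 without replicate 2). Irf9, the DNA-binding subunit of that complex, stood at 9.49, 9.57 and 9.66 on the ATRA arrays and at 10.51, 10.47 and 10.50 on the ATRA+pIC arrays. Its 3 ATRA+pIC arrays lay within 0.04 of each other, so replicate 2 did not stand apart for this gene (0.92 ± 0.08, adjusted p = 0.000567, and 0.93 ± 0.09 without replicate 2). The receptor chain Ifnar1 differed by -0.01 ± 0.09 (adjusted p = 0.98, and -0.02 ± 0.10 without replicate 2). Irf1, which responds to interferon gamma, and Socs1, an inhibitor of Jak kinases, were not called with all arrays and were called without replicate 2, at 0.40 ± 0.09 (adjusted p = 0.0109) and 0.70 ± 0.14 (adjusted p = 0.00762), and were chosen after their values were seen. Leaving out any 1 of the other 5 arrays gave 4 called members with all arrays and 4 to 7 without replicate 2.

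Type I interferon effectors, the antiviral proteins induced downstream, rose nearly as a whole. Of 46 measured effectors 43 rose and 0 fell with all arrays, and 45 rose without ATRA+pIC replicate 2, with medians of 1.53 and 1.84. Leaving out ATRA replicate 1, 2 or 3 or ATRA+pIC replicate 1 or 3 gave 34, 36, 36, 36 and 31 called effectors. Relative to the ATRA mean, the median effector stood 1.96, 0.90 and 1.66 higher on ATRA+pIC replicates 1, 2 and 3, and between -0.05 and 0.03 on the ATRA arrays. Replicate 2 was thus raised on this list, by less than the other ATRA+pIC arrays.

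Apol9b (probe set 17312686), an interferon-induced apolipoprotein, had the largest rise in both fits. It stood at 5.74, 5.97 and 5.21 on the ATRA arrays and at 11.94, 8.74 and 11.53 on the ATRA+pIC arrays. The groups did not overlap, and replicate 2 lay about midway between the ATRA arrays and the other ATRA+pIC arrays (5.10 ± 0.64, 34.3-fold, adjusted p = 0.00241, and 6.10 ± 0.20 without replicate 2). Isg15 (probe set 17434023), a ubiquitin-like protein that is attached to other proteins, stood at 8.21, 8.52 and 8.16 on the ATRA arrays and at 12.03, 10.35 and 11.70 on the ATRA+pIC arrays. All ATRA+pIC arrays were higher, and replicate 2 was again the lowest (3.06 ± 0.34, adjusted p = 0.00141, and 3.57 ± 0.16 without replicate 2). Oas2, which makes the messenger that activates RNA degradation, rose by 3.11 ± 0.21 (adjusted p = 0.000203, and 3.33 ± 0.19 without replicate 2), and its relatives Oas3 and Oas1g by 2.76 ± 0.25 and 2.16 ± 0.18 (adjusted p = 0.000567 each, and 3.11 ± 0.14 and 2.40 ± 0.12 without replicate 2). Ifit1, which binds viral RNA caps, rose by 2.84 ± 0.34 (adjusted p = 0.00205, and 3.34 ± 0.17 without replicate 2), and Bst2, which tethers budding virus, by 1.89 ± 0.22 (adjusted p = 0.0021, and 2.23 ± 0.09 without replicate 2). Ifi204, a DNA sensor, rose by 4.17 ± 0.66 (adjusted p = 0.00684) and by 5.18 ± 0.27 without replicate 2. The Oas, Ifit, Ifi200 and Gbp families hold close relatives, and a probe set can pick up more than 1 of them.

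**Figure D1:**
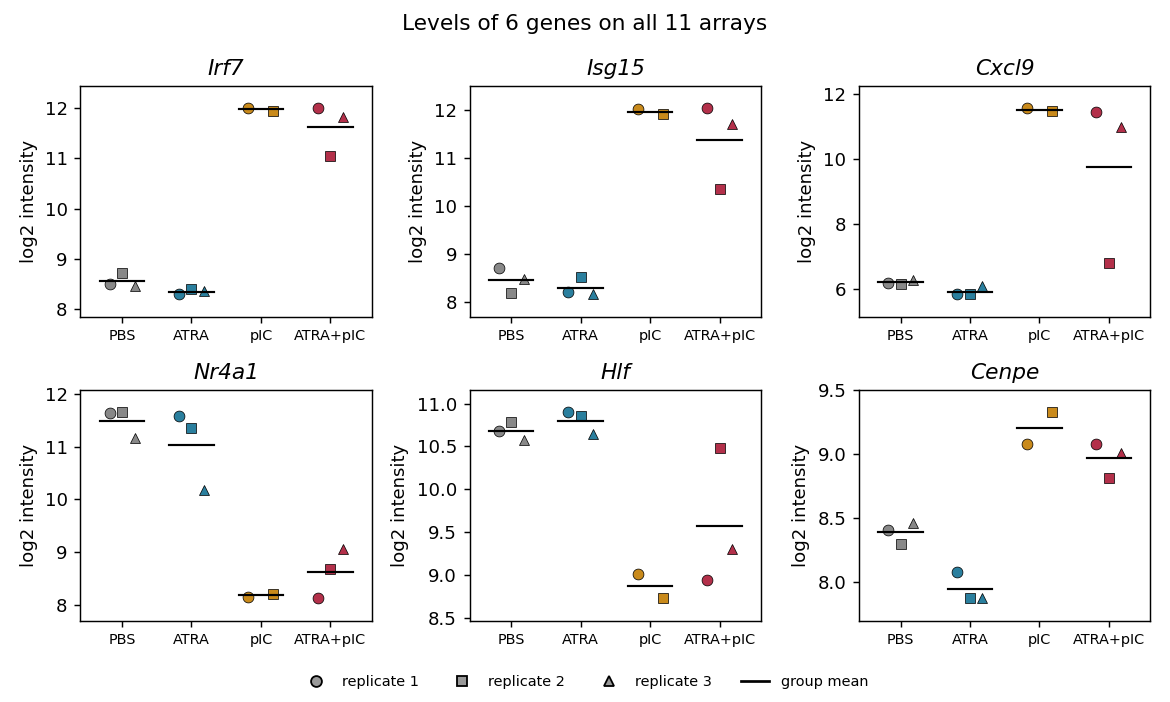
Log2 intensity of 6 genes on all 11 arrays, by group (x axis). Symbols mark replicate numbers and bars the group means. For Irf7 and Isg15 every ATRA+pIC array lies above every ATRA array, for Cxcl9 and Hlf ATRA+pIC replicate 2 lies near the ATRA arrays (6.80 and 10.48), and for Nr4a1 and Cenpe it lies with the other ATRA+pIC arrays (8.67 and 8.81).

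The promoters of part of these genes carry the letters of the interferon-stimulated response element. Windows of 300 bases, from 250 before to 50 after a transcription start, were taken from RefSeq (GRCm38.p6) for 16990 of the 22180 genes (20611 windows) and searched on both strands. The core of the interferon-stimulated response element, GAAA, any 2 bases and GAAA again, was found in 3.3% of all windows, in 8.75% of windows of genes that rose with all arrays and in 2.65% of windows of genes that fell. For the calls without replicate 2 these shares were 7.12% and 2.19%. It was found in 20 of 51 windows of the type I effectors (39.2%) and in 6 of 7 windows of the interferon-inducible GTPases (85.7%). These windows cover 38 of 46 effectors and only 6 of 13 GTPases. Cytosolic ribosomal proteins, of which 1 of 35 rose, held the core in 5 of 32 windows (15.6%). A match is a description of letters, and factor binding was not measured. The stretches below, each 5′ to 3′ on the strand of the gene, show 6 genes that rose, chosen because they carry the core, with the matched letters (overlapping matches merged, in either orientation) in capitals. Isg15 (chr4:156200860-156200911, minus strand) holds 3 overlapping matches that end 57 bases before the start, and Cxcl10 (chr5:92349078-92349117, minus strand) holds 1. The others are Ifit1 (chr19:34640770-34640828, plus), Apol9b (chr15:77729020-77729065, plus), Gbp3 (chr3:142559984-142560029, plus) and Igtp (chr11:58199507-58199546, plus).
Isg15: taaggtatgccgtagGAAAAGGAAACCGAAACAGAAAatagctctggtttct
Ifit1: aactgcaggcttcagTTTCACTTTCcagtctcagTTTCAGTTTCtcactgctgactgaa
Apol9b: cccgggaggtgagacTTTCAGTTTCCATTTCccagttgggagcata
Cxcl10: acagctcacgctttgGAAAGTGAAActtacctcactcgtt
Gbp3: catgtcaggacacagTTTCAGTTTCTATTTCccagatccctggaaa
Igtp: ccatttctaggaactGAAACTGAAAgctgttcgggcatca

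Interferon-inducible GTPases, which attack the compartments of intracellular pathogens, rose in 9 of 13 measured members with all arrays and in 13 of 13 without ATRA+pIC replicate 2 (medians 1.70 and 2.13), and 0 fell. The median member stood 2.32, 0.99 and 1.93 above the ATRA mean on ATRA+pIC replicates 1, 2 and 3. Gbp10 rose by 2.43 ± 0.24 (adjusted p = 0.000921, and 2.77 ± 0.13 without replicate 2), Iigp1 by 2.26 ± 0.24 (adjusted p = 0.0011, and 2.59 ± 0.15 without replicate 2), Igtp by 2.52 ± 0.39 (adjusted p = 0.0059, and 3.08 ± 0.21 without replicate 2) and Irgm1 by 1.62 ± 0.18 (adjusted p = 0.00141, and 1.85 ± 0.13 without replicate 2). Gbp3, whose promoter stretch is shown above, rose by 1.70 ± 0.28 (adjusted p = 0.00748) and by 2.13 ± 0.11 without replicate 2.

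Genes of antigen presentation by MHC class I were also among those that rose. Of 17 measured class I and immunoproteasome genes 9 rose with all arrays and 16 without ATRA+pIC replicate 2, 0 fell, and the medians were 0.62 and 0.89. Leaving out another array gave 6 called members without ATRA replicate 1 or 2 or ATRA+pIC replicate 1 or 3. Nlrc5, the transcriptional activator of class I genes, rose by 0.96 ± 0.14 (adjusted p = 0.00508, and 1.15 ± 0.10 without replicate 2). H2-T24, a non-classical class I chain, rose by 2.40 ± 0.27 (adjusted p = 0.0017, and 2.71 ± 0.23 without replicate 2) and Tap1, which carries peptides into the endoplasmic reticulum, by 0.81 ± 0.13 (adjusted p = 0.00801, and 0.97 ± 0.10 without replicate 2). The immunoproteasome subunit Psmb8 stood at 9.66, 9.79 and 9.70 on the ATRA arrays and at 10.45, 10.09 and 10.34 on the ATRA+pIC arrays. The groups did not overlap (0.57 ± 0.09, adjusted p = 0.00696, and 0.68 ± 0.08 without replicate 2). Of 10 measured class II genes 4 rose in each fit. H2-Ab1, a class II chain, rose by 1.76 ± 0.32 (adjusted p = 0.0112, and 2.13 ± 0.26 without replicate 2), and it missed the threshold without ATRA+pIC replicate 3 (adjusted p = 0.0529). The class II count was 0 to 3 when ATRA replicate 1, 2 or 3 or ATRA+pIC replicate 1 or 3 was left out, and 1 without replicate 2 and replicate 1.

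Chemokines and other inflammatory genes depended on ATRA+pIC replicate 2. Of 28 measured NF-kB targets and cytokines 6 rose and 1 fell with all arrays, and 14 rose and 2 fell without replicate 2 (medians 0.30 and 0.45). The total was 2 or 3 when any 1 of the other 5 arrays was left out, and 10 without replicate 2 and replicate 1. Cxcl9 (probe set 17449710), a chemokine that attracts activated T cells, stood at 5.83, 5.83 and 6.09 on the ATRA arrays and at 11.44, 6.80 and 10.99 on the ATRA+pIC arrays. Replicate 2 lay above the ATRA arrays but more than 4 log2 units below the other ATRA+pIC arrays. The difference was 3.82 ± 0.91 (adjusted p = 0.0308) with all arrays and 5.29 ± 0.13 (39.2-fold, adjusted p = 4.72e-08) without replicate 2. Its call with all arrays was lost without any 1 of ATRA replicates 1 to 3 or ATRA+pIC replicates 1 and 3 (adjusted p 0.0803 to 0.133). Cxcl10, which binds the same receptor and whose promoter carries the response element core, stood at 6.09, 5.61 and 5.85 on the ATRA arrays and at 10.31, 6.44 and 9.02 on the ATRA+pIC arrays. Its difference was 2.74 ± 0.71 (adjusted p = 0.0424), lost without any 1 of the other 10 arrays (adjusted p 0.0565 to 0.155), and 3.81 ± 0.31 (adjusted p = 5.41e-05) without replicate 2. Nfkbiz, an inhibitor-like regulator of NF-kB, fell by 0.88 ± 0.11 on the log2 scale (adjusted p = 0.00225, and -0.85 ± 0.12 without replicate 2), and replicate 2 did not stand apart there (8.06, 8.02 and 8.12 on the ATRA+pIC arrays).

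T- and NK-cell markers moved with those chemokines. Of 21 measured markers 2 rose with all arrays, and 15 rose and 1 fell without ATRA+pIC replicate 2 (medians 0.54 and 0.78). The count of 2 became 1 without ATRA replicate 1 or 2 or ATRA+pIC replicate 1 or 3. The median marker stood 0.85, -0.04 and 0.73 from the ATRA mean on ATRA+pIC replicates 1, 2 and 3. The summed linear intensity of the 21 markers ran from 3271 to 3587 on the ATRA arrays and from 3840 to 15354 on the ATRA+pIC arrays. Ccl5, a chemokine of activated T and NK cells that is also a member of the inflammatory list, stood at 8.08, 8.26 and 7.79 on the ATRA arrays and at 12.86, 8.27 and 12.40 on the ATRA+pIC arrays. Replicate 2 lay at the top of the ATRA range and the other ATRA+pIC arrays over 4 units higher (3.13 ± 0.91, adjusted p = 0.0656, and 4.59 ± 0.25, adjusted p = 5.6e-06, without replicate 2). The T-cell receptor subunit Cd3e stood at 6.75 to 6.92 on the ATRA arrays and at 8.67, 6.25 and 8.33 on the ATRA+pIC arrays. The cytotoxic protease Gzmb stood at 4.95, 5.44 and 4.96 on the ATRA arrays and at 9.77, 4.78 and 8.56 on the ATRA+pIC arrays, so replicate 2 lay below the ATRA arrays. Cd8a and Thy1 were not called in either fit (adjusted p 0.438 to 0.804). The part of these markers in the chemokine result was not tested. Cd3e, Cd8a and Thy1 were chosen after their values were seen.

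**Figure D2:**
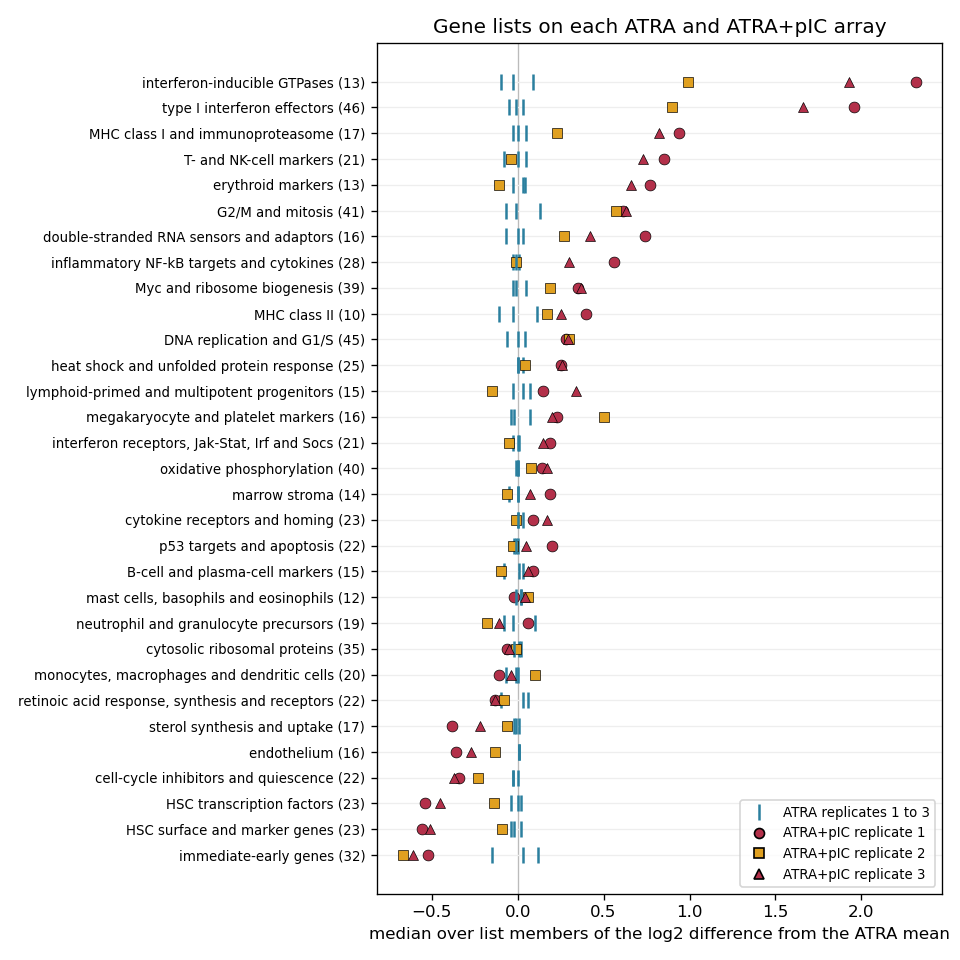
Median over the measured members of each gene list (number in brackets) of the log2 difference from the ATRA mean (x axis), for each ATRA array (bars) and each ATRA+pIC array (symbols). ATRA+pIC replicate 2 (squares) lies with replicates 1 and 3 for the G2/M (0.61, 0.57 and 0.63), G1/S and immediate-early lists, and lower for the interferon effectors (1.96, 0.90 and 1.66). It lies near 0 for T- and NK-cell markers.

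Immediate-early genes, which are switched on within minutes of a stimulus, had lower medians on each of the 3 ATRA+pIC arrays. Of 32 measured members 20 fell and 0 rose with all arrays, and 18 fell without ATRA+pIC replicate 2 (medians -0.56 and -0.53). The median member stood -0.52, -0.67 and -0.61 from the ATRA mean on replicates 1, 2 and 3. The count was 12 without ATRA replicate 1, 14 without ATRA+pIC replicate 1 and 12 without ATRA+pIC replicate 3, and 12 without replicate 2 and either other ATRA+pIC array. Nr4a1 (probe set 17315178), an orphan nuclear receptor linked to HSC quiescence, had the largest fall with all arrays. It stood at 11.59, 11.36 and 10.18 on the ATRA arrays and at 8.12, 8.67 and 9.05 on the ATRA+pIC arrays. ATRA replicate 3 was the lowest of its group, and the groups did not overlap (-2.43 ± 0.33, adjusted p = 0.00326, and -2.45 ± 0.39 without replicate 2). Its relative Nr4a2 differed by -1.65 ± 0.27 (adjusted p = 0.00703, and -1.70 ± 0.31 without replicate 2). Egr1, a growth-factor-induced zinc finger protein, stood at 10.16, 10.03 and 9.72 on the ATRA arrays and at 8.22, 8.87 and 8.99 on the ATRA+pIC arrays. Replicate 2 lay between the other ATRA+pIC arrays (-1.28 ± 0.19, adjusted p = 0.00519, and -1.37 ± 0.21 without replicate 2). The AP-1 subunit Fosb fell by 1.04 ± 0.09 (adjusted p = 0.000567, and -1.04 ± 0.10 without replicate 2), Klf4, a zinc finger factor that restrains proliferation, by 1.18 ± 0.14 (adjusted p = 0.0023, and -1.15 ± 0.16 without replicate 2), and Zfp36, which destabilises cytokine mRNAs, by 0.86 ± 0.09 (adjusted p = 0.000921, and -0.81 ± 0.09 without replicate 2). The CArG element, the letters bound by serum response factor, was found in 6 of 33 windows of this list (18.2%) and in 1.45% of all windows. The stretch of Egr2 (chr10:67537479-67537518, plus strand), with the match in capitals, is one example. It is shown for its letters only, since Egr2 was not called without replicate 2.
Egr2: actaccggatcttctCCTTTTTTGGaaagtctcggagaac

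Part of the HSC transcription factors fell, and the median factor stood -0.54, -0.14 and -0.45 from the ATRA mean on ATRA+pIC replicates 1, 2 and 3. Of 23 measured factors 9 fell and 1 rose with all arrays, and 15 fell and 1 rose without replicate 2 (medians -0.38 and -0.53). The total was 3, 5, 6 and 4 without ATRA replicate 1, ATRA replicate 2, ATRA+pIC replicate 1 and ATRA+pIC replicate 3. Hlf (probe set 17267702), a leucine zipper factor of long-term HSCs, stood at 10.90, 10.85 and 10.65 on the ATRA arrays and at 8.94, 10.48 and 9.31 on the ATRA+pIC arrays. Replicate 2 lay just below the ATRA arrays. The difference was -1.22 ± 0.30 (adjusted p = 0.0353), lost without any 1 of the other 10 arrays (adjusted p 0.0517 to 0.135), and -1.67 ± 0.13 (adjusted p = 5.41e-05) without replicate 2. Mecom, which encodes the HSC self-renewal factor Evi1, differed by -1.12 ± 0.24 (adjusted p = 0.0233) and by -1.47 ± 0.14 (adjusted p = 0.000146) without replicate 2. Its call with all arrays was lost without any 1 of ATRA replicates 1 to 3 or ATRA+pIC replicate 3 (adjusted p up to 0.109). Nkx2-3, a homeobox factor, fell on every ATRA+pIC array, from 9.34, 9.02 and 9.19 to 7.65, 8.12 and 7.93 (-1.28 ± 0.12, adjusted p = 0.000653, and -1.39 ± 0.11 without replicate 2). Hoxa5 fell by 1.40 ± 0.20 (adjusted p = 0.00431, and -1.61 ± 0.18 without replicate 2) and Mllt3, which maintains HSC expansion, by 0.92 ± 0.12 (adjusted p = 0.003, and -1.06 ± 0.10 without replicate 2).

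For HSC surface and marker genes the median stood -0.56, -0.09 and -0.51 from the ATRA mean on the same arrays. Of 23 measured genes 8 fell and 2 rose with all arrays, and 12 fell and 2 rose without ATRA+pIC replicate 2 (medians -0.45 and -0.53). The total was 6 without ATRA replicate 2 or ATRA+pIC replicate 1 or 3. Fgd5, a guanine nucleotide exchange factor used as a reporter gene of HSCs, stood at 9.02, 8.84 and 8.84 on the ATRA arrays and at 7.21, 8.02 and 7.63 on the ATRA+pIC arrays. No array of one group reached the other (-1.28 ± 0.16, adjusted p = 0.00241, and -1.48 ± 0.12 without replicate 2). Procr, the receptor for activated protein C, fell by 0.86 ± 0.09 (adjusted p = 0.000921, and -0.95 ± 0.08 without replicate 2) and the endothelial guidance receptor Robo4 by 1.14 ± 0.18 (adjusted p = 0.00667, and -1.36 ± 0.14 without replicate 2). Sult1a1 and Clec1a fell by 1.17 ± 0.12 (adjusted p = 0.0011, and -1.20 ± 0.14 without replicate 2) and 1.47 ± 0.19 (adjusted p = 0.00284, and -1.49 ± 0.23 without replicate 2), and replicate 2 reached 92.1% and 97.2% of the mean difference of replicates 1 and 3 there. Emcn, a surface sialomucin of HSCs and endothelium, stood at 9.19, 9.08 and 8.93 on the ATRA arrays and at 6.65, 8.61 and 7.30 on the ATRA+pIC arrays. Replicate 2 lay close to the ATRA arrays (-1.55 ± 0.36, adjusted p = 0.03, and -2.09 ± 0.17 without replicate 2), and the call with all arrays was lost without any 1 of the other 5 arrays (adjusted p 0.0719 to 0.126). Slamf1 differed by 0.01 ± 0.12 (adjusted p = 0.983, and 0.06 ± 0.14 without replicate 2). Cd48, a surface protein that is low on resting HSCs and high on progenitors, rose from 7.88, 7.46 and 7.43 to 9.46, 8.27 and 9.44 (1.47 ± 0.28, adjusted p = 0.0143, and 1.86 ± 0.17 without replicate 2), a call lost without ATRA replicate 2 or 3 or ATRA+pIC replicate 1 or 3 (adjusted p 0.0537 to 0.0784). Kit was not called with all arrays (-0.45 ± 0.12, adjusted p = 0.0522) and was called without replicate 2 (-0.62 ± 0.08, adjusted p = 0.000835).

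Most genes of mitosis rose. Of 41 measured G2/M genes 36 rose and 0 fell with all arrays, and 35 rose without ATRA+pIC replicate 2 (medians 0.61 and 0.63). The median member stood 0.61, 0.57 and 0.63 above the ATRA mean on replicates 1, 2 and 3, while single genes such as Ccnb2 stood lower on replicate 2. The count was 23 to 25 without an ATRA array and 24 and 18 without ATRA+pIC replicate 1 and 3, and 21 without replicate 2 and replicate 1. Cenpe (probe set 17402797), the kinetochore motor, stood at 8.08, 7.87 and 7.87 on the ATRA arrays and at 9.08, 8.81 and 9.01 on the ATRA+pIC arrays. The groups did not overlap, and replicate 2 lay 0.20 below the next array (1.03 ± 0.10, adjusted p = 0.000921, and 1.10 ± 0.11 without replicate 2). The PBS arrays lay between the groups, at 8.30 to 8.46. Kif2c, which depolymerises microtubules, stood at 7.37, 7.52 and 7.43 on the ATRA arrays and at 8.39, 8.35 and 8.50 on the ATRA+pIC arrays (0.97 ± 0.09, adjusted p = 0.000567, and about 1 without replicate 2). Kif22 and Tpx2, both spindle proteins, rose by 0.88 ± 0.10 (adjusted p = 0.00125, and 0.97 ± 0.09 without replicate 2) and 0.78 ± 0.10 (adjusted p = 0.00238, and 0.85 ± 0.10 without replicate 2). Mki67, the proliferation antigen Ki-67, stood at 10.88, 10.78 and 10.73 on the ATRA arrays and at 11.25, 11.41 and 11.32 on the ATRA+pIC arrays. Replicate 2 was the highest (0.53 ± 0.08, adjusted p = 0.00585, and 0.49 ± 0.09 without replicate 2), and the PBS arrays, at 11.25 to 11.33, lay within the range of the ATRA+pIC arrays. The CCAAT box was found in 28 of 37 windows of the G2/M list (75.7%) and in 37.7% of all windows. It was not particular to this list. The share was higher for MHC class II (7 of 8 windows, 87.5%) and for heat shock and unfolded protein response genes (79.2%). All other lists had lower shares, with 68.8% for sterol synthesis and uptake genes. Ccnb2 (chr9:70421556-70421656, minus strand), the mitotic cyclin B2, which rose by 0.75 ± 0.12 (adjusted p = 0.00594, and 0.90 ± 0.09 without replicate 2), carries 3 boxes, in capitals.
Ccnb2: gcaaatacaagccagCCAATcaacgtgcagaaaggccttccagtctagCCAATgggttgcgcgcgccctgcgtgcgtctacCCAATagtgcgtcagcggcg

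Among 45 measured genes of G1/S and DNA replication 19 rose and 1 fell with all arrays (median 0.30), and 20 rose and 1 fell without ATRA+pIC replicate 2 (median 0.29). The total was 7 to 10 without an ATRA array and 7 and 5 without ATRA+pIC replicate 1 and 3, and without replicate 2 it was 9, 11 and 13 on leaving out ATRA+pIC replicate 1, ATRA+pIC replicate 3 and ATRA replicate 3. E2f8, a repressor of the E2F family that peaks in S phase, rose by 1.30 ± 0.15 (adjusted p = 0.00178, and 1.46 ± 0.13 without replicate 2). Gins1, a subunit of the replicative helicase, stood at 8.36, 8.56 and 8.40 on the ATRA arrays and at 9.12, 9.11 and 9.18 on the ATRA+pIC arrays, with no overlap (0.70 ± 0.08, adjusted p = 0.00214, and 0.71 ± 0.09 without replicate 2). Cdk6, the kinase that sets how fast HSCs leave quiescence, rose by 0.68 ± 0.09 (adjusted p = 0.00274, and 0.76 ± 0.08 without replicate 2). Ccnd1, cyclin D1, was the member that fell, by 0.79 ± 0.16 (adjusted p = 0.0183, and -0.93 ± 0.16 without replicate 2), a call lost without ATRA replicate 1 or 2 or ATRA+pIC replicate 1 or 3 (adjusted p 0.0602 to 0.0771).

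Cell-cycle inhibitors and quiescence genes fell in 8 of 22 measured members with all arrays and in 11 without ATRA+pIC replicate 2, and 0 rose (medians -0.23 and -0.33). The count was 3 without ATRA+pIC replicate 1 or 3 and 4 or 5 without an ATRA array, and 4 and 6 without replicate 2 and replicate 1 or 3. Cdkn1c, the inhibitor p57 of resting HSCs, stood at 8.14, 7.93 and 8.08 on the ATRA arrays and at 7.01, 7.59 and 7.26 on the ATRA+pIC arrays. The groups did not overlap (-0.76 ± 0.15, adjusted p = 0.0148, and -0.92 ± 0.13, adjusted p = 0.00159, without replicate 2), and the call was lost without ATRA replicate 1 or 3 or ATRA+pIC replicate 1 or 3 (adjusted p 0.051 to 0.0648). Tob1, an antiproliferative adaptor, fell by 0.77 ± 0.11 (adjusted p = 0.00361, and -0.71 ± 0.12 without replicate 2) and the Krüppel-like factor Klf12 by 1.47 ± 0.18 (adjusted p = 0.00241, and -1.60 ± 0.19 without replicate 2). Ribosome biogenesis genes rose in 13 of 39 measured members with all arrays and in 27 without replicate 2 (medians 0.30 and 0.37), and 0 fell. That count was 1 to 5 without any 1 of the other 5 arrays and 6 without either pIC array, and 8, 14, 15 and 17 without replicate 2 and ATRA+pIC replicate 1 or 3 or ATRA replicate 1 or 2. Noc4l, a factor of the small ribosomal subunit, rose by 0.69 ± 0.11 (adjusted p = 0.00628, and 0.72 ± 0.12 without replicate 2), and Myc was not called (0.20 ± 0.08, adjusted p = 0.195, and 0.19 ± 0.09 without replicate 2).

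Of 22 measured genes of retinoid response, synthesis and receptors 3 fell and 0 rose with all arrays, and 4 fell without ATRA+pIC replicate 2 (medians -0.09 and -0.14). The count was 0 without ATRA replicate 2, 1 without ATRA+pIC replicate 1 or 3 and 2 without ATRA replicate 1 or 3, and without replicate 2 it was 6 and 2 on leaving out ATRA replicate 3 and ATRA+pIC replicate 1. Cyp26b1 (probe set 17468286), the enzyme that breaks retinoic acid down, stood at 7.28 to 7.83 on the PBS arrays and at 8.86, 9.81 and 9.39 on the ATRA arrays. With pIC after ATRA it stood at 6.87, 8.11 and 7.97, near or below the PBS arrays (-1.70 ± 0.32, adjusted p = 0.0129, and -1.93 ± 0.33 without replicate 2). The groups did not overlap. The call was lost without ATRA replicate 2 (adjusted p = 0.0512) and when only the ATRA and ATRA+pIC arrays were fitted (adjusted p = 0.0765). The receptor Rarb, itself a retinoic acid target, stood at 6.43 to 6.86 on the PBS arrays, at 7.70, 8.26 and 7.88 on the ATRA arrays and at 6.21, 7.27 and 6.74 on the ATRA+pIC arrays. It differed by -1.20 ± 0.25 (adjusted p = 0.0187, and -1.47 ± 0.22 without replicate 2), a call lost without ATRA replicate 2 or 3 or ATRA+pIC replicate 1 or 3 (adjusted p 0.0539 to 0.0805). Dhrs3, a retinal reductase, stood at 9.43 or lower on the PBS arrays, at 10.92, 11.41 and 11.30 on the ATRA arrays and at 10.74, 11.12 and 10.74 on the ATRA+pIC arrays. Its ATRA and ATRA+pIC arrays overlapped, all of them lay above the PBS arrays, and the difference with pIC was not called (-0.34 ± 0.16, adjusted p = 0.238, and -0.47 ± 0.16 without replicate 2). With all arrays, Dhrs3 was called when array weights were used. Without replicate 2 it was called when PBS replicate 2 or ATRA replicate 1 was also left out. In that fit it was also called without the dimmest 40% of genes and with a trend and robust prior. A test of its difference from Cyp26b1 was not made.

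**Figure D3:**
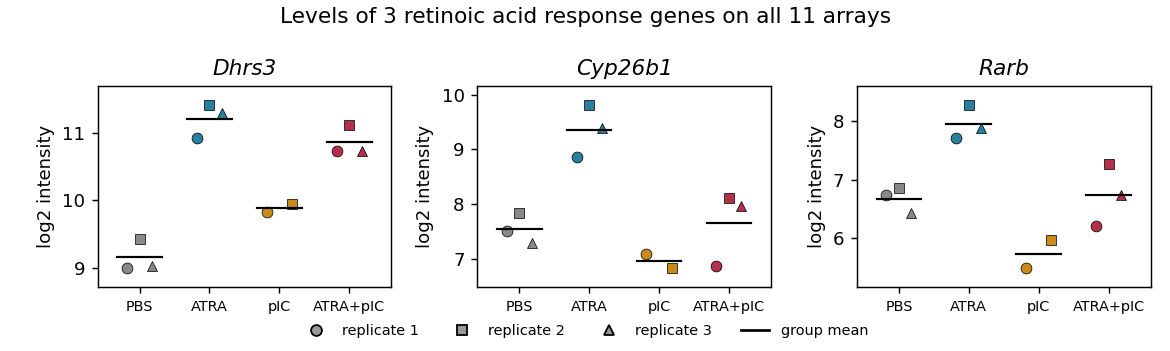
Log2 intensity of 3 retinoic acid response genes on all 11 arrays, by group (x axis), with symbols for replicate numbers and bars for group means. Dhrs3 lies above 10.7 on all ATRA+pIC arrays, which overlap the ATRA arrays. Cyp26b1 and Rarb lie lower on the ATRA+pIC arrays than on the ATRA arrays.

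Markers of some other blood lineages differed between ATRA+pIC arrays. Of 13 erythroid markers 2 rose with all arrays, and 7 rose and 1 fell without ATRA+pIC replicate 2. With all arrays the count was 0 without ATRA replicate 1 or 3 and 1 without any 1 PBS, pIC or other ATRA+pIC array. The median erythroid marker stood 0.77, -0.11 and 0.66 from the ATRA mean on replicates 1, 2 and 3, and the summed intensity ran from 7034 to 7839 on the ATRA arrays and from 6039 to 11000 on the ATRA+pIC arrays. Rhag, an erythrocyte membrane channel, stood at 7.59, 7.38 and 7.69 on the ATRA arrays and at 10.24, 7.51 and 9.46 on the ATRA+pIC arrays, so replicate 2 lay within the ATRA range. Among the markers of megakaryocytes and platelets (16 measured) 6 were called higher and 1 lower in each fit. Over all 16, called or not, replicate 2 had the highest median (0.23, 0.50 and 0.20). The 7 called without replicate 2 moved a median of 56.6% as far on it as on replicates 1 and 3. Choosing genes by calls from those arrays by itself lowers this share. The integrin Itga2b (CD41) rose by 1.21 ± 0.15 (adjusted p = 0.00238, and 1.43 ± 0.08 without replicate 2), from 9.83, 9.85 and 9.93 to 11.35, 10.65 and 11.24, and the platelet signalling protein Plek by 1.03 ± 0.11 (adjusted p = 0.00125, and 1.14 ± 0.10 without replicate 2). Of 19 neutrophil and granulocyte precursor markers 1 rose and 1 fell with all arrays, and 2 rose and 2 fell without replicate 2. Of 20 markers of monocytes, macrophages and dendritic cells 2 rose and 0 fell with all arrays, and 2 rose and 2 fell without replicate 2. Over all genes 3.50% rose and 3.71% fell with all arrays, and 6.98% and 7.51% without replicate 2. Counts of 1 or 2 are therefore not read as a result for these lists. Of 15 B-cell and plasma-cell markers 0 were called in either fit. Of 12 mast cell, basophil and eosinophil markers 0 were called with all arrays, and 1 rose and 1 fell without replicate 2. With all arrays the monocyte count of 2 was 0 or 1 without any 1 of the other 10 arrays. The neutrophil count of 2 was 1 without ATRA replicate 1 or 2 or ATRA+pIC replicate 1 or 3, and its count of 4 without replicate 2 was 2 without any 1 ATRA or pIC array, PBS replicate 3 or ATRA+pIC replicate 1. The monocyte count of 4 without replicate 2 was 2 without ATRA+pIC replicate 1. The part of these lineage markers in the other differences was not tested.

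Replicate 2 was also read gene by gene. Of the 3214 genes called without it, 2760 (85.9%) lay on the same side of the ATRA mean on replicate 2, and 2311 (71.9%) lay beyond the ATRA arrays on that side. The median gene moved 37.8% as far on replicate 2 as on the mean of replicates 1 and 3 (quartiles 16.4% and 60.3%). These genes were chosen by calls made from replicates 1 and 3, which by itself lowers the share on an array left out of the choice, and the shares use the same ATRA arrays that entered the calls. They are therefore descriptions and do not show by how much replicate 2 responded less. The share differed by list. It was 105% for 18 called immediate-early genes, 84.7% for 35 G2/M genes, 45.3% for 45 type I interferon effectors, 37.9% for 16 HSC transcription factors and 0.17% for 16 T- and NK-cell markers. Among single genes it was 75.8% for Irf7 and 80.4% for Oas2, but 16.7% for Cxcl9 and 19.0% for Hlf. No test was made between these shares, since replicate 2 is a single array.

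**Figure D4:**
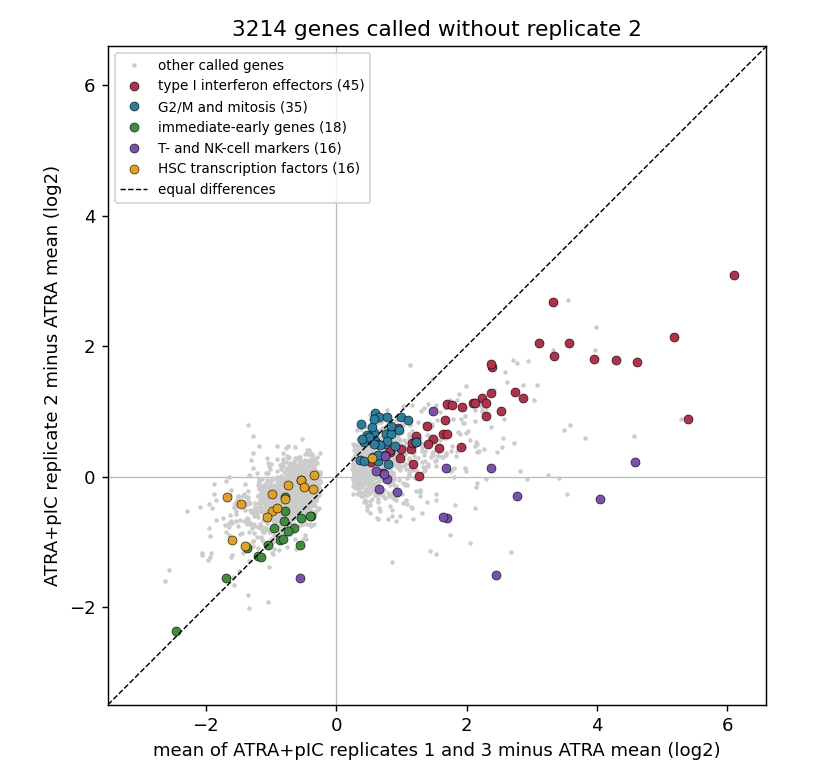
Log2 difference from the ATRA mean on ATRA+pIC replicate 2 (y axis) against the mean of ATRA+pIC replicates 1 and 3 (x axis), for the 3214 genes called without replicate 2. The dashed line marks equal differences. Immediate-early and G2/M genes lie around the line, interferon effectors lie below it, and T- and NK-cell markers scatter to both sides of 0 on the y axis, 8 of 16 of them in the direction of replicates 1 and 3.

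The response to pIC after ATRA was set beside the response without ATRA (pIC minus PBS, n = 2 and 3), which shares no array with it. Limma called 3260 genes for pIC minus PBS (14.7%), 1984 higher (8.94%) and 1276 lower (5.75%). Across the 22180 genes, which are not independent replicates, the responses correlated with Pearson r = 0.811, and 0.839 without ATRA+pIC replicate 2. Of the 1599 genes called after ATRA, 1568 (98.1%) had the same sign in pIC minus PBS, beside 68.8% of all 22180 genes. Of these calls 1176 were also made in that direction without ATRA, which is 73.5% of the calls after ATRA and 36.1% of those without. Without replicate 2 1956 calls were shared, 60.9% and 60.0% of the lists. The interaction, the response after ATRA minus the response without it, tests the difference itself. Limma called 0 genes for it in both fits (0.00%), and 1390 (6.27%) had an unadjusted p under 0.05, or 1368 (6.17%) without replicate 2. The smallest adjusted p was 0.395, for Mid1, with all arrays and 0.471, for Mterf1b, without replicate 2. A p that misses the threshold does not show that the responses were equal, and the intervals below give the sizes left possible.

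The median effector rose by 1.85 in pIC minus PBS, by 1.53 after ATRA and by 1.84 after ATRA without ATRA+pIC replicate 2. The median over effectors of the interaction was -0.36 with all arrays and -0.03 without replicate 2. For Irf7 the interaction was -0.15 ± 0.29 (95% interval -0.79 to 0.50), and for Isg15 -0.43 ± 0.51 (95% interval -1.56 to 0.69). All single-gene interactions given here include ATRA+pIC replicate 2, the lowest ATRA+pIC array for Irf7 and Isg15. Without it the rises after ATRA were larger, 3.56 for Irf7 and 3.57 for Isg15. Leaving it out therefore moves both interactions upward, so their negative signs rest on that array. The immediate-early list had medians of -0.78 without ATRA and -0.56 after it, and Nr4a1, which fell by 3.31 ± 0.37 without ATRA, had an interaction of 0.88 ± 0.50 (95% interval -0.22 to 1.99). The G2/M list had medians of 0.47 without ATRA and 0.61 after it. Mki67 did not pass in pIC minus PBS (0.07 ± 0.09, adjusted p = 0.701) and rose after ATRA, and its interaction was 0.46 ± 0.12 (95% interval 0.19 to 0.73, adjusted p = 0.742). Dhrs3 differed by 0.73 ± 0.18 in pIC minus PBS (adjusted p = 0.0208), with an interaction of -1.08 ± 0.24 (95% interval -1.60 to -0.55, adjusted p = 0.702). The platelet chemokine Pf4 stood at 11.61 to 11.87 on the PBS arrays, 10.94 and 11.15 on the pIC arrays, 10.52, 10.93 and 10.87 on the ATRA arrays and 11.01, 11.21 and 11.25 on the ATRA+pIC arrays. Its pIC arrays lay below the PBS arrays, and its ATRA+pIC arrays lay above the ATRA arrays. The difference between ATRA+pIC and ATRA was not called with all arrays or without replicate 2. Its interaction was 1.08 ± 0.18 (adjusted p = 0.512). Mid1, a microtubule-associated ubiquitin ligase, had the largest of these, 1.98 ± 0.29 (adjusted p = 0.395). Its PBS arrays stood at 9.97 to 10.73, its pIC arrays at 9.36 and 8.99, its ATRA arrays at 8.78 to 9.14 and its ATRA+pIC arrays at 9.57, 9.99 and 9.94. None of these intervals is adjusted for the number of genes.

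**Figure D5:**
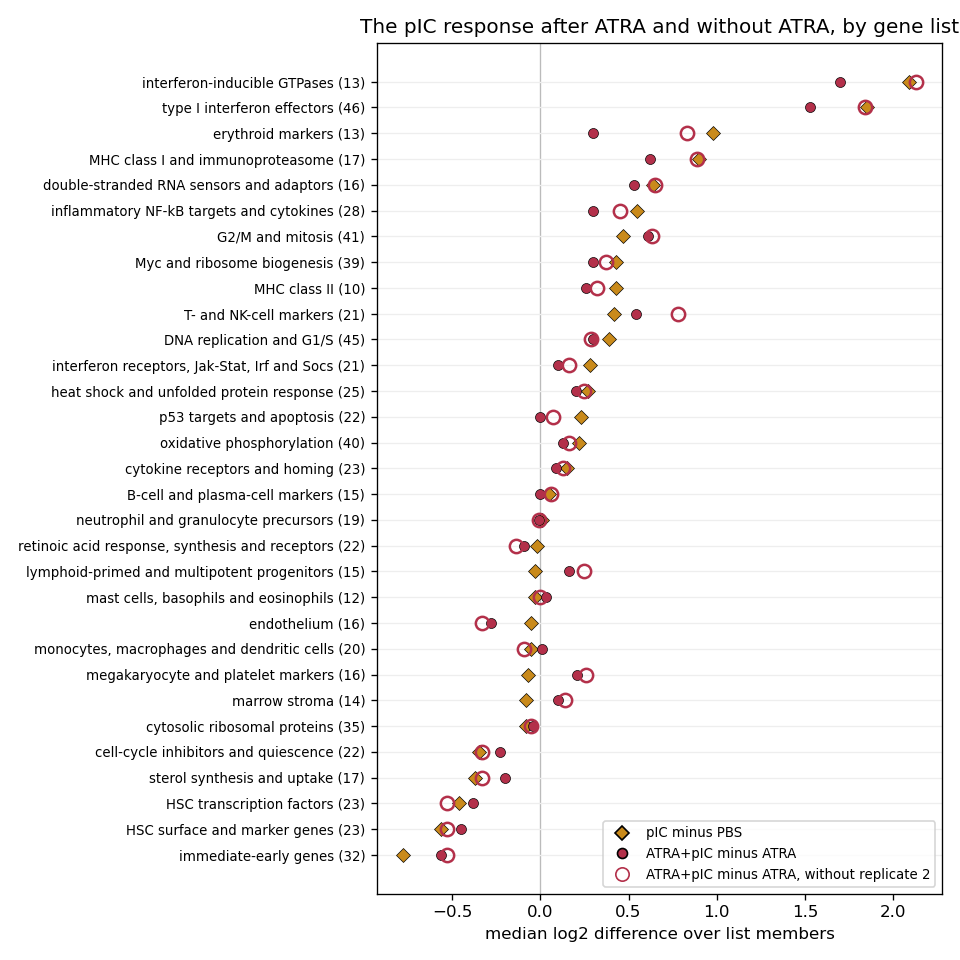
Median log2 difference over the measured members of each gene list (number in brackets, x axis) for pIC minus PBS (diamonds), ATRA+pIC minus ATRA (filled circles) and the same without ATRA+pIC replicate 2 (open circles). Without replicate 2 the effector median is 1.84, beside 1.85 for pIC minus PBS, and the immediate-early median is nearer 0 after ATRA than without it.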

How the data were processed

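Per the labels' protocols, total RNA of sorted HSCs was isolated with a PicoPure kit, DNase-treated and labelled with biotin for Affymetrix arrays. The authors deposited a table of normalised log2 intensities with 41345 probe sets. RMA, oligo 1.36.1 and limma 3.28.20 are named, without role, per the submitters' processing notes. Platform annotation gave 1 symbol to 23521 probe sets, several to 1814 and none to 16010. The single-symbol probe set with the highest mean over 11 arrays stood for each gene (22180 genes).

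A model of 4 group means was fitted with limma 3.58.1 (R 4.3.3), with 7 residual degrees of freedom, two-sided tests and Benjamini-Hochberg adjustment, and refitted without ATRA+pIC replicate 2. It was tested on simulated data. Figures and counts were made in Python 3.11.15. Nothing says that replicates came from separate mice, so the spread behind the p-values is that among these arrays and may be technical. The members and the 31 gene lists were chosen with earlier results of these data known. The text names genes from the 15 largest rises and falls, the members of each list with the smallest p (at most 4), the 10 smallest interaction p-values, and 20 fixed genes (19 measured). Some named genes lay outside that rule, among them Slamf1, Ifnar1, Tlr3 and those marked as chosen after their values were seen. An item withheld for evaluation is not reported here. Alternatives were array weights, the replicate number as a block, the dimmest 40% of genes left out, cyclic loess, other uses of probe sets, only the compared groups, a trend and robust prior, and each array left out.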

Additional observations from a re-analysis of the deposited data

How the results depend on the processing

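The count of genes called with all arrays, 1599, became 4588 with array weights, which gave ATRA+pIC replicates 1, 2 and 3 weights of 0.647, 0.366 and 4.19. It became 305 when only the ATRA and ATRA+pIC arrays were fitted, so most calls drew on the spread among the PBS and pIC arrays. Calls lost there include Ifih1, Stat2, Gbp3, Igtp, Psmb8, Tap1, Nr4a2 and Robo4 (limma adjusted p 0.0544 to 0.0658). With 1 array left out it ran from 476 (without ATRA+pIC replicate 3) to 3214 (without ATRA+pIC replicate 2). It was 579 without ATRA+pIC replicate 1 and 594, 624 and 755 without ATRA replicates 1, 2 and 3. It ran from 1235 to 1415 without a PBS or pIC array. The count without replicate 2, 3214, ran from 1162 (also without ATRA+pIC replicate 1) to 3221. The interaction count, 0, ran from 0 to 1 with 1 array left out, the 1 gene without pIC replicate 1, and was 0 with array weights. The cause of these changes was not tested.

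The replicate numbers did not pair the samples. Same-numbered ATRA and ATRA+pIC arrays deviated from their group means with correlations of -0.012, -0.013 and 0.037, and the numbers were given no other meaning in the labels. With the replicate number as a block, 1358 genes were called with all arrays, 2525 without replicate 2 and 0 for the interaction. For the genes named by the rule, leaving out 1 array kept the side of the threshold in 1902 cases with all arrays, lost the call in 298 and gained one in 33. Without replicate 2 these were 1916, 109 and 5. The number of arrays limits the precision of all of them.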

Other observations

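Other gene families were counted after their values were seen, and no test of the families was made. Of 38 proteasome subunits, which form the protease that degrades ubiquitin-tagged proteins, 16 rose with all arrays and 28 without ATRA+pIC replicate 2, 0 fell, and the medians were 0.33 and 0.42. Per array the median subunit stood 0.43, 0.15 and 0.40 above the ATRA mean on ATRA+pIC replicates 1, 2 and 3. Of 71 mitochondrial ribosomal proteins, which translate mitochondrial mRNAs, 12 rose with all arrays and 27 without replicate 2 (medians 0.23 and 0.27). Of 36 Hox genes 6 fell with all arrays and 10 without replicate 2, with medians of -0.10 and -0.09.

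Oxidative phosphorylation genes rose in 7 of 40 measured members with all arrays and fell in 1 (median 0.13), and 9 rose and 2 fell without replicate 2 (median 0.16). The electron carrier Cycs rose by 0.42 ± 0.08 (limma adjusted p = 0.0173, and 0.49 ± 0.08 without replicate 2). The total of 8 calls became 0, 4 and 2 without ATRA replicate 1, 2 and 3 and 0 without ATRA+pIC replicate 1 or 3, and without replicate 2 the total of 11 became 2 without ATRA+pIC replicate 1 and 6 without ATRA replicate 1 or ATRA+pIC replicate 3. Cytosolic ribosomal proteins had a median of -0.04, with 1 of 35 higher and 2 lower in each fit, and with all arrays 0 or 1 called without any 1 ATRA, pIC or other ATRA+pIC array. Without replicate 2 the total was 1 without ATRA+pIC replicate 1. Among sterol synthesis and uptake genes 4 of 17 fell with all arrays and 6 without replicate 2, 0 rose, and Insig1, which holds back cholesterol synthesis, fell by 0.65 ± 0.15 (limma adjusted p = 0.0279, and -0.79 ± 0.14 without replicate 2). The sterol count became 0 without ATRA replicate 1 or 2 or ATRA+pIC replicate 1 or 3, 2 without ATRA replicate 3, and 1 or 2 without PBS replicate 1 or 3 or a pIC array. Without replicate 2 it was 3 without ATRA replicate 1 or 2 and 1 without ATRA+pIC replicate 1. Both the Cycs and the Insig1 calls were lost without ATRA replicate 1 or ATRA+pIC replicate 1 or 3, among others. Of 16 endothelial markers 5 fell with all arrays (1, 3 and 3 without ATRA replicate 1, 2 and 3, and 2 without ATRA+pIC replicate 1 or 3) and 7 fell and 1 rose without replicate 2 (3 called when ATRA+pIC replicate 1 was also left out), and the median stood -0.36, -0.13 and -0.27 from the ATRA mean on ATRA+pIC replicates 1, 2 and 3. Among the endothelial markers that fell with all arrays, Robo4 and Emcn are also on the HSC surface and marker list. Vwf is also on the megakaryocyte and platelet list, so these lists are not separate results. Pygm, the muscle form of glycogen phosphorylase, had the second largest fall with all arrays. It stood at 9.85, 10.11 and 9.88 on the ATRA arrays and at 6.78, 8.35 and 7.85 on the ATRA+pIC arrays (-2.29 ± 0.30, limma adjusted p = 0.00284, and -2.63 ± 0.25 without replicate 2).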
